A study of Homo sapiens with 12 samples.

Results

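The aryl hydrocarbon receptor complex and its target CYP1A1 were followed through 5 genes, taken by symbol from the 2 deposited expression tables: AHR, ARNT, PTGES3, CYP1A1 and TIPARP. All 5 were listed in both tables, out of 11070 genes for 23132/87 and 11554 for SW48, with 10264 genes in both. Both are established lines labelled wild type, 23132/87 from a gastric adenocarcinoma and SW48 from a colorectal one. Cells of each line received either 10 µM myricone C (MyrC in the plots), a neolignan from Myristica fragrans per the series title, or vehicle alone (0.1% DMSO) for 48 h, with 3 biological replicates in each of the 4 groups and 12 stranded mRNA libraries in all. Values are the deposited expression signal per gene, whose unit is not given in the sources used here and which resembles FPKM or TPM, that is, a signal scaled to library size and gene length.

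AHR is a transcription factor that waits in the cytosol in a complex with HSP90 and co-chaperones, among them p23 (encoded by PTGES3). When a ligand such as a dioxin, a polycyclic aromatic compound or a tryptophan metabolite binds, AHR enters the nucleus, pairs with ARNT and binds DNA elements with the core GCGTG near its target genes. CYP1A1, a monooxygenase that oxidises many of these ligands, is the classic target, and TIPARP (PARP7), a mono-ADP-ribosyltransferase that is itself induced, acts back on the receptor as a repressor. In epithelia of the gut this pathway handles dietary and microbial ligands.

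All 5 epithelial markers (EPCAM, CDH1, KRT8, KRT18 and KRT19) were listed in both lines. With myricone C, 1 of these epithelial genes rose and 4 fell in 23132/87 (median log2 change -1.22), while 4 rose and none fell in SW48 (median 0.74). Of all genes 23.3% rose and 23.2% fell in 23132/87, and 10.1% rose and 19.2% fell in SW48. Of 7 gastric markers only TFF1 was listed in 23132/87 and none in SW48, while 4 of 8 colorectal markers were listed in each line, among them CDX2 in both. TFF1 fell by 0.85 ± 0.17 (SE) in 23132/87 on the log2 scale. The colorectal markers had no common direction. In 23132/87 1 of 4 rose (LGALS4) and none fell. In SW48 1 of 4 rose (CEACAM5, from a mean of 7.36 to 12.9) and 2 fell (CDX2 and LGR5). CDX2 was at -0.02 ± 0.16 in 23132/87 (limma adjusted p = 0.928) and fell by 1.47 ± 0.18 in SW48, a difference of -1.45 ± 0.26 (adjusted p = 0.00268). LGR5 fell by 0.76 ± 0.15 in SW48. Of 5 leukocyte markers only CD68, a lysosomal protein gene, was listed, in 23132/87, and the defining marker PTPRC was listed in neither table. CD68 went from between 3.95 and 6.48 with vehicle to between 12.9 and 14.8 with myricone C (log2 change 1.22 ± 0.16, adjusted p = 0.000288). The part of these marker changes in the results on the receptor was not tested. Every listed gene lay above 1 in all 6 libraries of its line, so a gene that is silent in either condition is not listed. The summed signal of a library ranged from 464037 to 536594, and read depth is unknown. One library stood apart: SW48 myricone C replicate 1 drew 5.26% of its signal from genes for 7SL, 7SK and small nuclear RNAs, where the remaining SW48 libraries drew 0.0490% to 0.204%.

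The genes lie on 5 chromosomes (GENCODE release 29, GRCh38). CYP1A1 is on chromosome 15, from 74719542 to 74725610 on the minus strand, and TIPARP on chromosome 3, from 156673235 to 156706770 on the plus strand. AHR spans 16916359 to 17346152 on the plus strand of chromosome 7, ARNT spans 150809705 to 150876768 on the minus strand of chromosome 1, and PTGES3 spans 56663341 to 56688408 on the minus strand of chromosome 12. TIPARP overlaps TIPARP-AS1 on the opposite strand. AHR overlaps the antisense gene AC073332.1, the protein-coding gene AC019117.2 on its own strand, pseudogenes and a small RNA gene, ARNT overlaps a U6 copy and PTGES3 a 7SL copy on its own strand. None of these was listed in either table. Since the strand setting of the counting is not given in the sources used here, reads of overlapping genes may not have been told apart.

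Because AHR binds the GCGTG core, the 250 bases before each RefSeq start of the 5 genes (7 windows, GRCh38.p14) were searched on both strands. The motifs were GCGTG, the longer form TNGCGTG and ACGTG. Whether these elements took part in the changes of CYP1A1 or TIPARP was not tested. ACGTG and GCGTG are also the forms of the hypoxia response element, which ARNT binds with another partner. The matches are given as stretches of 30 bases, 5′ to 3′ on the gene's strand, with the matched letters in capitals. A match on the opposite strand reads CACGC or CACGT.
CYP1A1, chr15:74725564-74725593, minus strand: ggaaggagGCGTGgccaCACGTacaagccc
TIPARP, chr3:156674369-156674398, plus strand: acgcgagaaaggaCACGCcccctcgcggga
TIPARP, chr3:156674435-156674464, plus strand: tcgaacgaacgcgCACGCgcgcgcaggggg
PTGES3, chr12:56688322-56688351, minus strand: aacaaggactgcgCACGCgcggcggcaagg
AHR, chr7:17298475-17298504, plus strand: gtcctacgtcatCACGTGccgggatgaggg

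CYP1A1 held 1 GCGTG and 1 ACGTG, at bases -57 to -53 and -48 to -44 from its RefSeq start. The stretches printed lie inside the GENCODE spans given above, which begin farther upstream, so they precede the RefSeq starts only. TIPARP held 2 GCGTG matches in the first of its 3 windows, PTGES3 held 1, and AHR held ACGTG on both strands of the same 6 letters. No window of the 5 genes held TNGCGTG, and the ARNT window held none of the 3 motifs. Of 35116 RefSeq windows of this length, 32.2% held GCGTG, 4.52% held TNGCGTG and 18.5% held ACGTG. The short core was thus common in such windows. These matches describe letters only, and the enhancers farther upstream were not searched.

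Under vehicle, the receptor itself was the member that differed most between the lines in level. AHR was at 28.3, 30.3 and 33.2 in the 23132/87 vehicle libraries and at 5.35, 7.27 and 7.13 in those of SW48. Its mean was 4.65 times as high in 23132/87, with no overlap between the libraries. ARNT, its DNA-binding partner, was at 21.3, 24.8 and 23.7 against 11.5, 15.2 and 10.9, a mean 1.85 times as high in 23132/87, again without overlap. PTGES3 was at 274, 262 and 312 against 251, 232 and 295, so the co-chaperone overlapped between lines. The tables of the lines were made separately, so these levels stand side by side without a test.

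The targets under vehicle went otherwise. CYP1A1 was low in both lines, at 3.04 ± 0.985 (SD, n = 3) in 23132/87 and 2.77 ± 0.485 in SW48, above only 11.1% and 8.32% of the genes listed. TIPARP was at 14.3 ± 1.71 and 21.2 ± 1.97, here with the higher level in SW48. The line with the higher AHR thus did not list the higher TIPARP under vehicle.

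Within a library, the deposited signal orders the members, as far as it is scaled to gene length. Across genes it fell with transcript length (Spearman rho -0.28 over 10247 genes in 23132/87 and -0.26 over 10558 in SW48, a description across genes). The order under vehicle in 23132/87 was PTGES3, AHR, ARNT, TIPARP and CYP1A1, and in SW48 it was PTGES3, TIPARP, ARNT, AHR and CYP1A1. No neighbours in either order overlapped. AHR therefore stood above ARNT in 23132/87, with ratios of AHR to ARNT of 1.33, 1.22 and 1.40 in the vehicle libraries. In SW48 it stood below, at 0.465, 0.479 and 0.654. PTGES3 exceeded AHR by 9.67, 8.65 and 9.41 times in the 23132/87 vehicle libraries and by 46.9, 31.9 and 41.4 times in those of SW48.

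**Figure D1:**
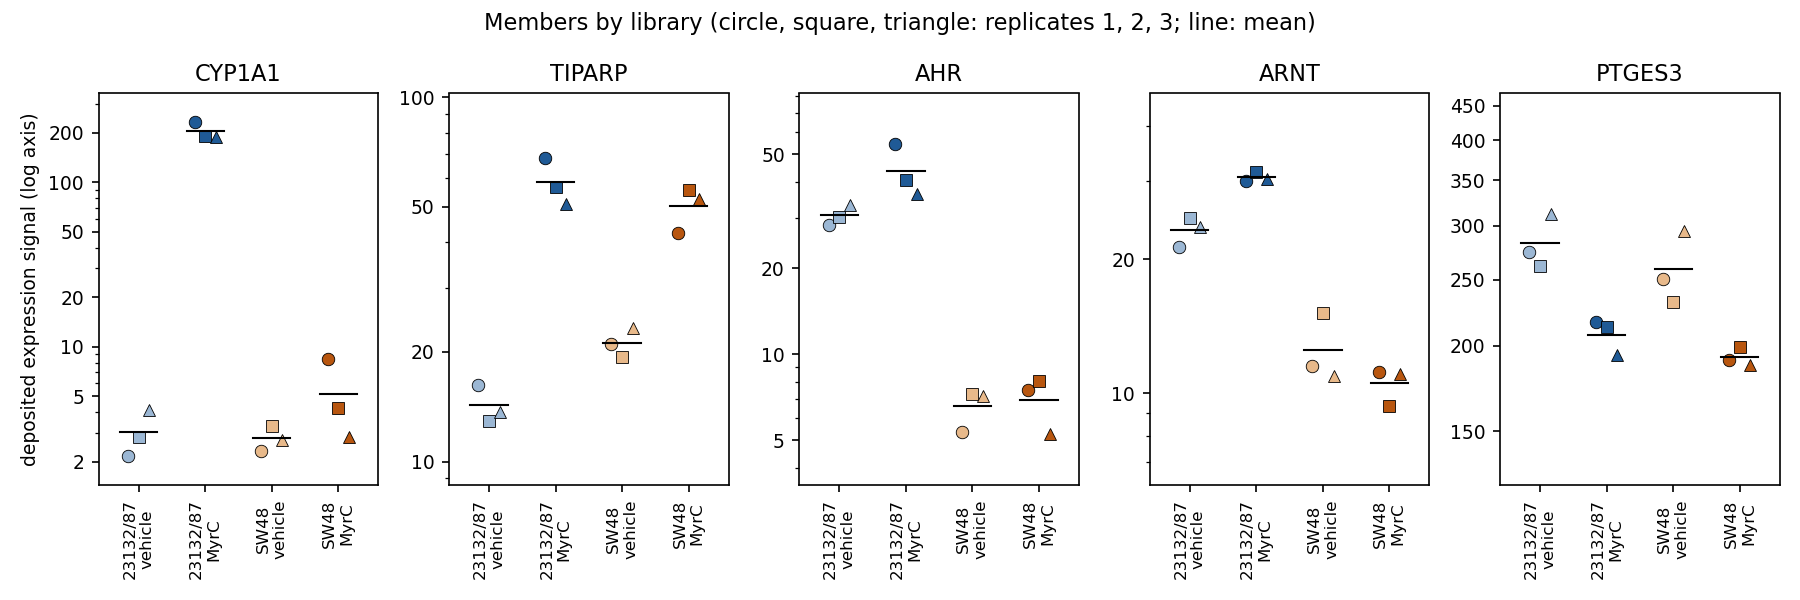
Deposited expression signal (log axis, a separate range for each gene) of the 5 genes in each of the 12 libraries, as points by replicate, with the group mean as a line. CYP1A1 in 23132/87 myricone C libraries sits near 205 while all other groups stay under 10, and AHR is lower in all 6 SW48 libraries than in any 23132/87 library.

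Myricone C against vehicle was then compared in 23132/87 (limma on log2(signal + 1), Benjamini-Hochberg adjustment over all genes, called at adjusted p under 0.05). CYP1A1 rose most of all 11070 genes, TIPARP rose as well, the mRNAs of the receptor and of ARNT rose by less, and PTGES3 fell. All 5 members were thus called, 4 higher and 1 lower. In this line 46.5% of all genes tested were called, 23.3% higher and 23.2% lower, so a call alone does not set these genes apart. In bulk cultures, fewer cells expressing a gene and less RNA per cell cannot be told apart.

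CYP1A1 was at 2.17, 2.83 and 4.11 with vehicle and at 232, 192 and 190.0 with myricone C. Every treated library lay far above every vehicle library. The ratio of the means was 67.4, and the log2 change was 5.69 ± 0.17 (SE, 95% interval 5.32 to 6.06, limma adjusted p = 6.09e-08). Its place among listed genes went from above 11.1% of them to above 97.5%, where it overlapped with PTGES3 (217, 213 and 194), the most abundant of the 5. Leaving out any one library kept the change between 5.53 and 5.88.

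TIPARP was at 16.2, 13.0 and 13.7 with vehicle and at 68.3, 56.6 and 51.1 with myricone C in 23132/87. The groups did not overlap, and the ratio of the means was 4.10 (log2 change 1.96 ± 0.13, SE, 95% interval 1.67 to 2.25, limma adjusted p = 5.21e-06). It held place 42 among the largest rises of the 11070 genes. CYP1A1 went from 0.134, 0.218 and 0.300 of the TIPARP signal to 3.39, 3.40 and 3.72 times that signal. Both genes are receptor targets, and CYP1A1 passed TIPARP in each treated library.

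AHR was at 54.5, 40.6 and 36.2 with myricone C, above the highest vehicle library at 33.2. Its log2 change was 0.48 ± 0.14 (SE, limma adjusted p = 0.0201). The size rests in part on replicate 1 of the treated cells, without which it was 0.32, and the call was lost without vehicle replicate 1 (0.43) or 2 (0.48). ARNT was at 30.0, 31.5 and 30.3 with myricone C, above all vehicle libraries (log2 change 0.38 ± 0.10, SE, limma adjusted p = 0.00973), and that call held under all 16 alternatives run. Both changes are near the median absolute change of all genes in this line, 0.33.

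PTGES3 was at 217, 213 and 194 with myricone C, below all vehicle libraries (262 to 312). It fell by 0.44 ± 0.10 (SE, limma adjusted p = 0.00659) on the log2 scale, and the call was lost after quantile normalization (-0.26, adjusted p = 0.0805). As PTGES3 fell while AHR rose, the ratio of PTGES3 to AHR went from between 8.65 and 9.67 with vehicle to 3.98, 5.25 and 5.35 with myricone C. PTGES3 has processed pseudogene copies in the genome, so a share of its reads may have been placed elsewhere. None named after it was listed.

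In SW48, TIPARP rose and PTGES3 fell, and CYP1A1, AHR and ARNT were not called. The count of 2 of 5 members called, 1 higher and 1 lower, stands beside 29.3% of 11554 genes called in this line, 10.1% higher and 19.2% lower. TIPARP was at 21.0, 19.3 and 23.2 with vehicle and at 42.4, 55.7 and 52.5 with myricone C, without overlap. The ratio of the means was 2.37, and the log2 change was 1.20 ± 0.13 (SE, 95% interval 0.91 to 1.49, limma adjusted p = 0.00021), with place 191 among the largest rises.

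CYP1A1 in SW48 was at 2.32, 3.28 and 2.71 with vehicle and at 8.42, 4.26 and 2.82 with myricone C. The groups overlapped, since treated replicate 3 lay below vehicle replicate 2. The log2 change was 0.61 ± 0.27 (SE, 95% interval 0.02 to 1.21, limma adjusted p = 0.11), and the ratio of the means was 1.86. The highest value came from replicate 1, the library rich in 7SL and small nuclear RNA signal (5.26%), and without it the change was 0.26 (adjusted p = 0.345). Without myricone C replicate 3 it was 0.91 and past the threshold (adjusted p = 0.0216). With signals this low the pseudocount weighs on the size as well: 0.75 with a pseudocount of 0.1 and 0.35 with 5. These values neither show a rise of CYP1A1 in SW48 nor that there was none.

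AHR in SW48 was at 7.48, 8.05 and 5.25 with myricone C, overlapping with the vehicle libraries (log2 change 0.06 ± 0.18, SE, 95% interval -0.33 to 0.44, limma adjusted p = 0.838). ARNT was at 11.1, 9.33 and 11.1, overlapping as well (log2 change -0.22 ± 0.15, 95% interval -0.55 to 0.11, adjusted p = 0.291). Levels of the receptor pair were therefore not shown to change in this line. PTGES3 was at 191, 199.6 and 188, below all vehicle libraries (232 to 295), and fell by 0.42 ± 0.12 (SE, limma adjusted p = 0.0195) on the log2 scale. Quantile normalization (-0.28) or leaving out vehicle replicate 3 (-0.32) ended that call.

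**Figure D2:**
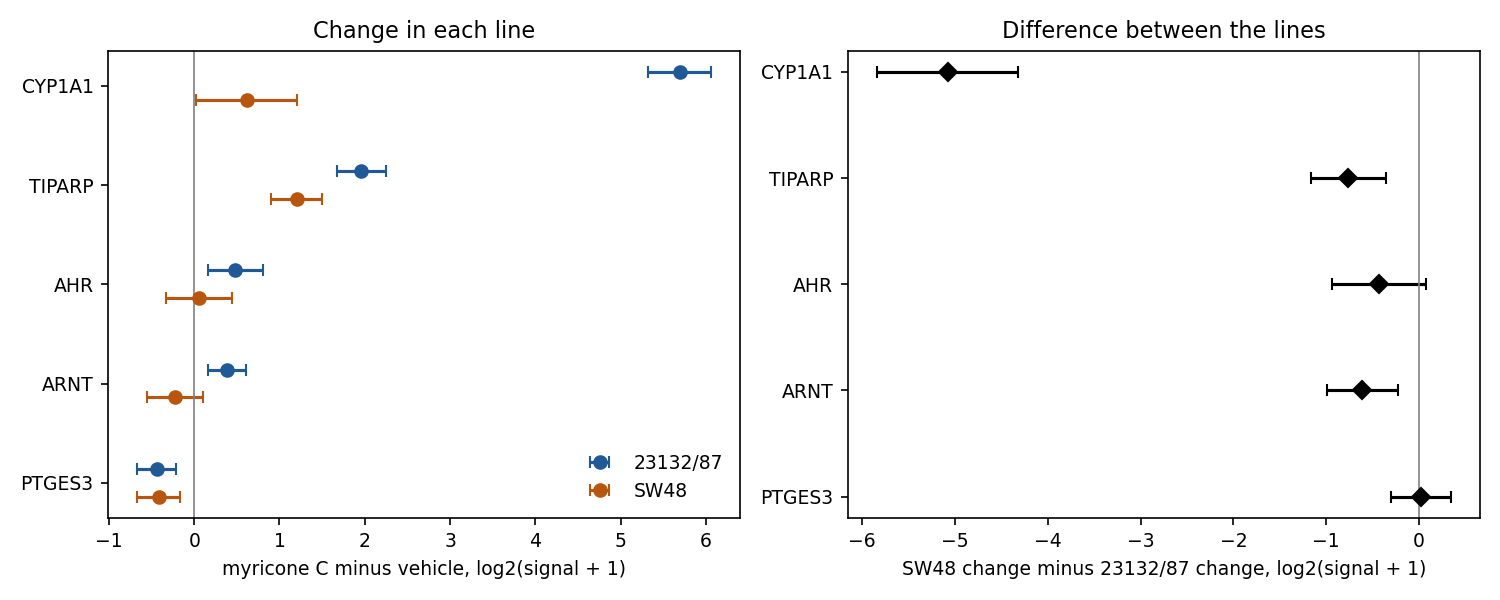
Left, log2 change in signal + 1 with myricone C in 23132/87 and SW48 for the 5 genes. Right, the SW48 change minus the 23132/87 change. Bars are 95% intervals from limma. CYP1A1 stands apart in 23132/87 at 5.69, TIPARP is above 0 in both lines, and PTGES3 lies at -0.44 and -0.42.

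The difference between the lines was tested as the line-by-treatment term over the 10264 genes in both tables, of which 12.7% were called, 5.33% with the higher change in SW48 and 7.39% with the lower. CYP1A1, TIPARP and ARNT were called, 3 of 5 members, each with the lower change in SW48. For CYP1A1 the difference was -5.08 ± 0.36 (SE, 95% interval -5.84 to -4.32, limma adjusted p = 4.76e-06), the largest of all genes tested, and it stayed past the threshold in all 21 alternatives run (-5.44 to -4.35). The ratio of mean CYP1A1 signal between the lines went from 1.10 with vehicle to 39.6 with myricone C. Without SW48 myricone C replicate 1 the difference was -5.44.

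TIPARP differed by -0.76 ± 0.19 (SE, limma adjusted p = 0.0184). Its mean with myricone C was 58.6 ± 8.79 (SD, n = 3) in 23132/87 and 50.2 ± 6.95 in SW48, with libraries that overlapped, while its vehicle libraries did not (levels set side by side without a test). The call was lost after quantile normalization (-0.63, adjusted p = 0.0511) and without 23132/87 vehicle replicate 2 (-0.70, adjusted p = 0.0511). Relative to TIPARP, CYP1A1 was at 0.199, 0.0765 and 0.0537 in the treated SW48 libraries, where 23132/87 had 3.39 to 3.72.

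ARNT differed by -0.61 ± 0.18 (SE, limma adjusted p = 0.0352), and this call is frail. It was lost in 10 of 21 alternatives, with values from -0.69 to -0.47. On leaving out single libraries it was lost without 23132/87 vehicle replicate 1 (-0.55), 2 (-0.65) or 3 (-0.62), without 23132/87 myricone C replicate 1 (-0.62), 2 (-0.59) or 3 (-0.61), without SW48 vehicle replicate 2 (-0.47) and without SW48 myricone C replicate 2 (-0.53). AHR, although called in 23132/87 alone, was not shown to respond differently in SW48 (-0.43 ± 0.24, 95% interval -0.94 to 0.08, adjusted p = 0.253). For PTGES3 the difference was 0.02 ± 0.15 (95% interval -0.30 to 0.35, adjusted p = 0.942), an interval that leaves room for changes of unequal size.

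**Figure D3:**
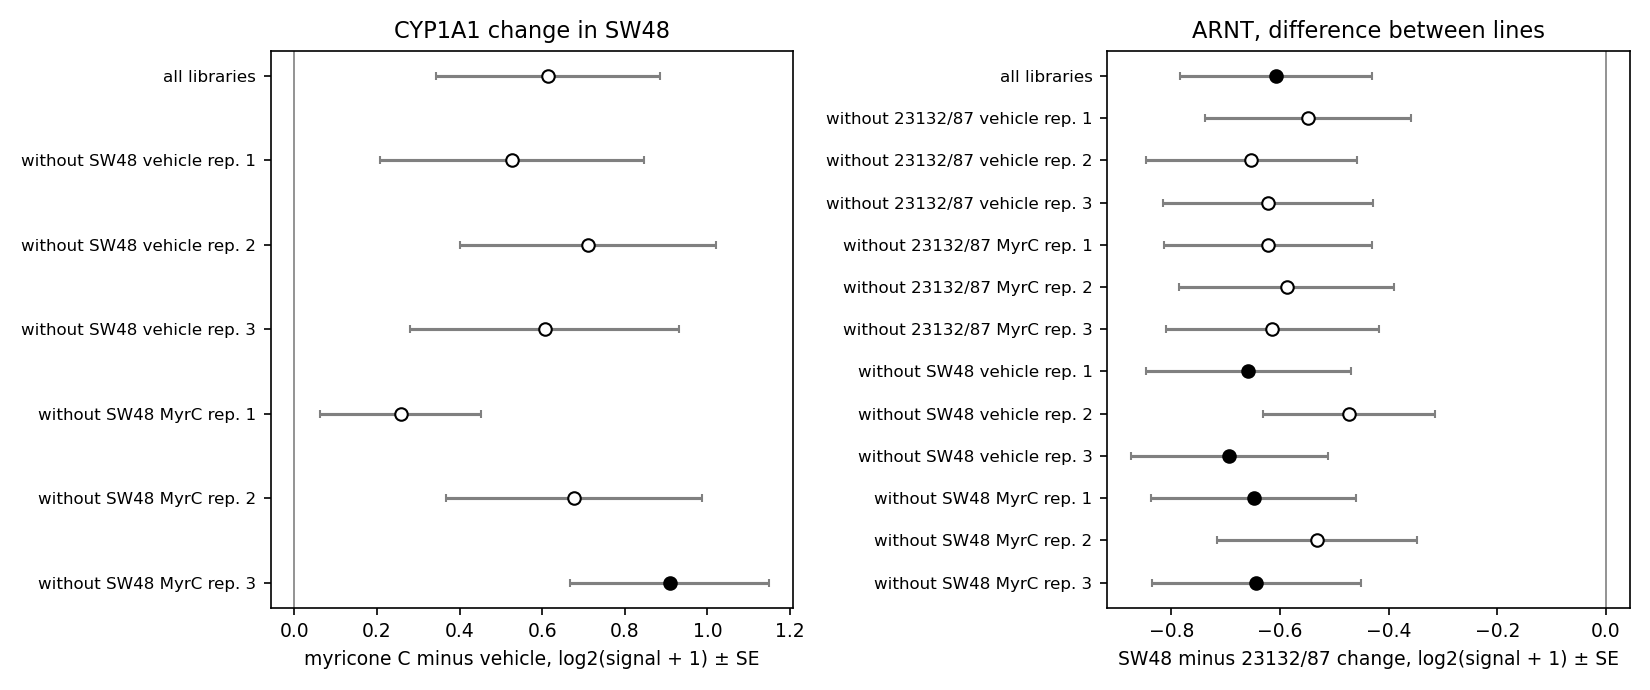
Log2 change of CYP1A1 in SW48 (left) and difference of the ARNT change between lines (right) with all libraries and with each library left out, ± SE. Filled points are past adjusted p under 0.05. CYP1A1 goes from 0.26 without myricone C replicate 1 to 0.91 without replicate 3, and the ARNT difference keeps its direction while its call is lost in 8 of 12 fits.

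Other parts of the receptor complex fell, most of all in 23132/87. HSP90AA1, the stress-inducible cytosolic HSP90, went from 946 ± 55.6 to 266 ± 12.9 (SD, n = 3) in 23132/87 and from 1044 ± 114 to 667 ± 134 in SW48. Its log2 changes were -1.82 ± 0.10 (SE, limma adjusted p = 3.03e-06) and -0.66 ± 0.15 (adjusted p = 0.00803), and they differed by 1.16 ± 0.19 (adjusted p = 0.00172). HSP90AB1, the constitutive HSP90, fell by 1.01 ± 0.10 in 23132/87 and was at -0.14 ± 0.11 in SW48 (adjusted p = 0.361), with a difference of 0.87 ± 0.14 (adjusted p = 0.00137). Both HSP90 genes have many near-identical copies, so their own levels are uncertain.

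Over 5 genes of the complex (AHR, ARNT, PTGES3, HSP90AA1 and HSP90AB1), 2 rose and 3 fell in 23132/87, beside 23.3% and 23.2% of all genes, where their median log2 change was -0.44 and that of all genes 0.01. In SW48 none rose and 2 fell, beside 10.1% and 19.2% of all genes, their median being -0.22 and that of all genes -0.08, and the same 2, HSP90AA1 and PTGES3, fell without myricone C replicate 1.

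Of 10 further HSP90 co-chaperones, all listed in both lines, none rose and 9 fell in 23132/87 (median log2 change -0.73), where 23.2% of all genes fell. FKBP5, an immunophilin of steroid receptor complexes, fell by 1.37 ± 0.14 (SE) and its relative FKBP4 by 1.27 ± 0.10 on the log2 scale. FKBP5 went from a mean signal of 5.12 to 1.35, near the lowest values listed. Its change ranged from -1.84 to -0.67 over the alternatives, while that of FKBP4 ranged from -1.34 to -1.15. In SW48 none rose and 5 fell (median -0.32), where 19.2% of all genes fell. Without myricone C replicate 1, 5 fell likewise, when UNC45A took the place of ST13. Of the SW48 calls with all libraries, that of ST13 was lost in 12 of 17 alternatives, that of STIP1 in 10 and that of AHSA1 in 2. FKBP5 fell by 0.56 ± 0.14 there, a call lost without vehicle replicate 3 (-0.47), and the phosphatase PPP5C by 0.49 ± 0.13, a call lost without vehicle replicate 1 (-0.39) or 3 (-0.51) or myricone C replicate 2 (-0.41). The change was higher in SW48 than in 23132/87 for 5 of the 10 and lower for none, beside 5.33% of all genes higher, among them FKBP4 at 1.19 ± 0.17 (limma adjusted p = 0.000735), and for 4 without SW48 myricone C replicate 1. The call of the FKBP5 difference was lost with a pseudocount of 5 (0.24), and that of CHORDC1 in 12 of 21 alternatives.

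The receptor's targets did not move as one. Of 14 textbook targets 8 were in the 23132/87 table, where 3 rose and 3 fell (median log2 change -0.30), beside 23.3% and 23.2% of all genes. The SW48 table held 8 as well, where 3 rose and none fell (median 0.52), beside 10.1% and 19.2%. These counts include members already described, namely CYP1A1 and TIPARP among those that rose in 23132/87 and TIPARP in SW48. The only other target to rise in 23132/87 was CYP1B1. Without SW48 myricone C replicate 1 the SW48 median was 0.23 and ABCG2 fell besides. CYP1B1, the sister enzyme of CYP1A1, was listed in 23132/87 only and went from 3.09 ± 1.67 to 5.46 ± 0.505 (SD, n = 3), with overlap between the groups (log2 change 0.73 ± 0.24, limma adjusted p = 0.0313). Its call was lost after quantile normalization (0.67), without vehicle replicate 2 (0.48) or 3 (0.67) and without myricone C replicate 1 (0.72) or 3 (0.68). The genes that fell were ALDH3A1 at -0.66 ± 0.17, NEDD9 at -0.96 ± 0.15 and UGT1A1 at -0.71 ± 0.12. UGT1A1 shares exons with the other UGT1A genes, so its own level is uncertain.

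AHRR, the receptor's repressor and a sensitive target, was listed in SW48 only, at 3.33 ± 0.198 with vehicle and 3.51 ± 0.981 with myricone C (adjusted p = 0.894). NQO1, a quinone reductase that AHR and NRF2 both control, was at -0.16 ± 0.15 in 23132/87 (limma adjusted p = 0.406) and rose by 0.66 ± 0.12 in SW48 (adjusted p = 0.00267), a difference of 0.82 ± 0.19 (adjusted p = 0.0104) in the direction opposite to that of CYP1A1. NQO1 started from 2069.7 ± 163 in 23132/87 and from 175 ± 20.8 in SW48. EREG, a growth factor of the EGF family, was listed in SW48 only and rose there from 10.7 ± 2.64 to 65.6 ± 24.0, a log2 change of 2.47 ± 0.24 (adjusted p = 0.000116). CYP1A2, UGT1A6 and SERPINB2 were listed in neither table.

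Among 13 bHLH-PAS genes, the family of AHR and ARNT that includes the hypoxia and clock factors, 7 were listed in each table. In 23132/87 4 rose and none fell (median log2 change 0.38), beside 23.3% of all genes that rose, led by the clock factors NPAS2 at 0.60 ± 0.14 and CLOCK at 0.58 ± 0.15 (SE). SIM2, another of the 4, was at 0.38 ± 0.13. Its call was lost after quantile normalization (0.31) or median-centred scaling (0.35), without vehicle replicate 1 (0.35), 2 (0.44) or 3 (0.35) and without myricone C replicate 2 (0.30) or 3 (0.37). In SW48 BMAL2, another clock factor, fell by 0.61 ± 0.15 and none rose (median -0.08), beside 19.2% of all genes that fell, and without myricone C replicate 1 EPAS1 fell too. HIF1A, which competes with AHR for ARNT, was not called in either line (0.31 ± 0.13, adjusted p = 0.0768, and -0.08 ± 0.13, adjusted p = 0.661). ARNT2, the close relative of ARNT, was not listed in either table.

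Enzymes that serve P450s showed no common direction. Of 10 such genes and other xenobiotic P450s 4 were listed in each table, of which 3 were called in 23132/87 (46.5% of all genes) and 1 in SW48 (29.3%). In 23132/87 CYP3A5, a drug-metabolising P450, rose by 0.69 ± 0.12 (SE), and the electron carrier CYB5A fell by 0.92 ± 0.17 and CYB5R3 by 0.47 ± 0.09. In SW48 CYB5R3, the reductase of cytochrome b5, fell by 0.77 ± 0.12 and no other was called. POR, the reductase that feeds electrons to CYP1A1, was at 0.23 ± 0.14 in 23132/87 (adjusted p = 0.194) and 0.19 ± 0.12 in SW48 (adjusted p = 0.262).

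Of 9 coregulators of the receptor 2 rose and 1 fell in 23132/87 (median log2 change 0.22), a smaller share than the 46.5% called among all genes, with the coactivator NCOA3 at 0.95 ± 0.14 (SE) and the chromatin remodeller SMARCA4 at -0.62 ± 0.12. NCOR1 rose as well, a call lost in 4 of 16 alternatives. In SW48 1 rose and none fell (median 0.24), where 29.3% of all genes were called, the Mediator subunit MED1 at 0.42 ± 0.12. That call was lost without vehicle replicate 3 (0.34) and without myricone C replicate 2 (0.41) or 3 (0.43). Of 5 genes of receptor turnover and export, 3 fell in 23132/87, beside 23.2% of all genes, with TBL3 at -0.65 ± 0.17 and DDB1 at -0.58 ± 0.09. Only XPO1, the exportin, fell in SW48 (-0.39 ± 0.12), a call lost after quantile normalization (-0.26), median-centred scaling (-0.34) or rescaling without mitochondrial pseudogenes and small RNA genes (-0.32), without vehicle replicate 2 (-0.40) or 3 (-0.32) and without myricone C replicate 2 (-0.41) or 3 (-0.33). None of these 9 coregulators and 5 turnover genes differed between the lines at adjusted p under 0.05 in limma with all 12 libraries. Without SW48 myricone C replicate 1, NCOA1 was called, with the lower change in SW48.

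TIPARP belongs to the PARP family, of which 14 other members were listed in 23132/87 and 15 in SW48. None of them rose by as much. In 23132/87 6 rose and 1 fell (median log2 change 0.26), a share called close to the 46.5% of all genes, led by PARP8 at 1.26 ± 0.14 (SE) and PARP6 at 0.95 ± 0.13, beside TIPARP at 1.96. In SW48 2 rose and 2 fell (median -0.02), where 29.3% of all genes were called, with PARP16, a PARP of the endoplasmic reticulum, at -0.74 ± 0.13 and PARP1, the main DNA damage PARP, at -0.64 ± 0.12. These calls of PARP16 and PARP1 held in every alternative fitted. Those that rose were TNKS2, a call lost in 7 of 17 alternatives, and PARP8, a call lost in 5. PARP1 fell in 23132/87 as well, by 0.68 ± 0.10 on the log2 scale. The change was lower in SW48 for 3 of 14 members and higher for none, beside 7.39% of all genes lower, among them PARP6 by -0.78 ± 0.16 (SE, limma adjusted p = 0.00724) and PARP16 by -0.76 ± 0.19 (adjusted p = 0.0171). The call of the PARP8 difference was lost in 10 of 21 alternatives. Without SW48 myricone C replicate 1, PARP14 took the place of PARP8.

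Of 9 genes that supply or import tryptophan-derived ligands, 3 were listed in 23132/87 and 4 in SW48. SLC7A5 and SLC3A2, which form the amino acid exchanger LAT1 that carries tryptophan and kynurenine, rose in both lines, beside 23.3% and 10.1% of all genes, SLC7A5 by 1.54 ± 0.12 and 1.95 ± 0.19 (SE) and SLC3A2 by 1.95 ± 0.09 and 1.88 ± 0.16. Both genes are also induced by amino acid stress. TDO2, which opens the tryptophan ring, was listed in SW48 only and fell there, its mean of 94.1 ± 10.3 under vehicle dropping to 38.7 ± 4.50 (SD, n = 3), with a log2 change of -1.26 ± 0.13 (limma adjusted p = 0.00013). IDO1, the other enzyme of that step, was listed in neither table. The rule for named genes does not cover ALDH3A1, NEDD9, UGT1A1, TDO2, POR, HIF1A, ABCG2, EPAS1, SIM2, ST13, STIP1, AHSA1, CHORDC1, UNC45A, TNKS2, PARP14, NCOA1, NCOR1, CYB5R3 and PARP1 in 23132/87, the markers or the unlisted genes. These were picked with their values in view.

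**Figure D4:**
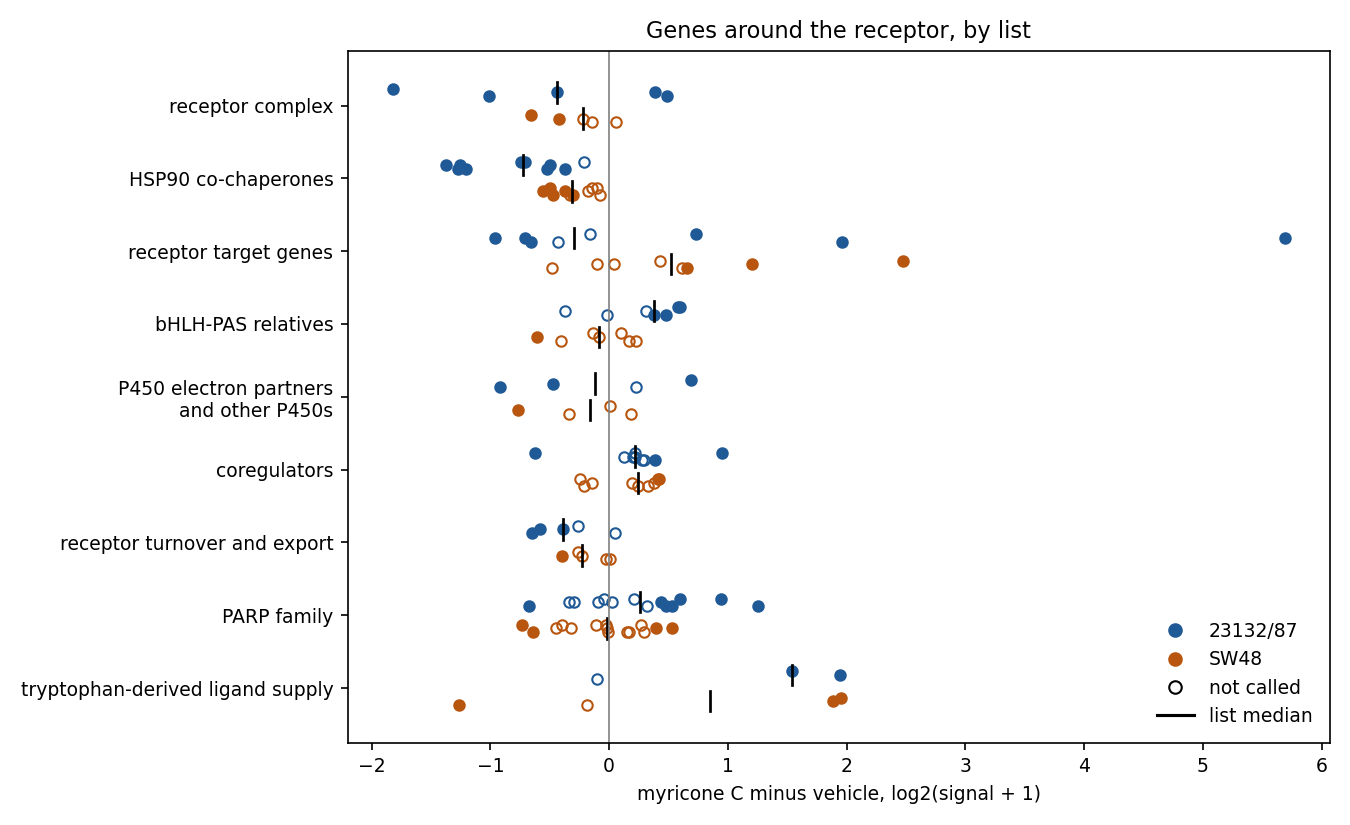
Log2 change in signal + 1 with myricone C for each listed gene around the receptor, by list and line. Filled points passed adjusted p under 0.05, and black bars are list medians. CYP1A1 is the single point beyond 5 among the receptor targets in 23132/87, and the co-chaperone points lie below 0 in both lines.

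The genes whose pattern over the 6 libraries of a line was most like that of the targets were taken by Pearson correlation of log2(signal + 1) among genes with a mean of at least 10, as a description in which the treatment contrast carries most of the likeness. In 23132/87 those nearest to CYP1A1 were TUBE1, the epsilon tubulin (r = 0.9997), the copper importer SLC31A1 (0.9988) and the ubiquitin ligase RNF114 (0.9987), with log2 changes of 1.84, 1.38 and 0.55. Those nearest to TIPARP were GPCPD1 (0.9995), TCEA1 (0.9991) and the prion protein gene PRNP (0.9991). In SW48 TIPARP was followed most closely by the tRNA synthetase TARS1 (0.9992), the serine synthesis enzyme PSAT1 (0.9976) and the metallothionein MT2A (0.9976). CYP1A1 in SW48 was followed less closely, by ACSS2 (0.969), DSG2 (0.967) and SORL1 (0.963), a pattern set by its high value in myricone C replicate 1. No gene was nearest to a target in both lines.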

How the data were processed

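Per the labels, 12 mRNA libraries of 23132/87 and SW48 cells were made with a stranded kit, 3 per group. The submitters' processing notes list FastQC, STAR and GRCh38. Neither a counting tool nor a unit is given in the sources used here. For each line the authors deposited a table with the signal of each gene, which was not treated as counts. Columns were matched through the descriptions in the labels, where SW48 myricone C replicates 1 to 3 have column names numbered 2 to 4, and replicate numbers here follow the titles. No column was left unused.

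Signals were log2 transformed after adding 1, genes under a mean of 1 were dropped, and limma 3.58.1 (R 4.3.3), with a trend and with Benjamini-Hochberg adjusted p over all genes, was fitted to the 6 libraries of a line, or to all 12 with a line-by-treatment term. Log2(signal + 1) understates changes of low genes. Scripts were tested on simulated data. The members and gene lists were chosen with earlier results of these data known. The naming rule takes the 5 members, further pathway genes, and of each list the 2 members with the largest called change in a line. Some genes that it covers are not reported here and were left out of the list counts. Alternatives were pseudocounts of 0.1 and 5, no filter, a filter at 10 in 3 libraries, no trend, quantile, median-centred and rescaled values, the replicate number as a block, all 12 libraries in one fit, and leaving out each library. No gene was under a mean of 1, so the alternative with no filter repeats the main fit wherever alternatives are counted. List counts without SW48 myricone C replicate 1 were added after seeing the data. Promoter windows come from RefSeq (GRCh38.p14), and all 5 members matched.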

Additional observations from a re-analysis of the deposited data

Results flagged for a closer look

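The response to myricone C differed between the lines for 3 members by the line-by-treatment test (limma). The SW48 change minus the 23132/87 change was -5.08 for CYP1A1 (5.69 against 0.61), -0.76 for TIPARP (1.96 against 1.20) and -0.61 for ARNT (0.38 against -0.22). Every group holds 3 libraries, too few for a test of single outlying samples.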

How the results depend on the processing

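The fits with no filter repeat the main fits, since no gene was under a mean of 1, and could not differ. Of 268 recomputed values of the 5 members, these included, 241 kept their direction and their side of the threshold. The sign changed in 7, all of values near 0 that were called in neither fit. AHR in SW48 went from -0.067 to 0.22 on leaving out single libraries, being negative when vehicle replicate 1, myricone C replicate 1 or myricone C replicate 2 was left out. The PTGES3 difference went from -0.054 to 0.12, being negative when replicate 3 of either 23132/87 group or replicate 2 of either SW48 group was left out. AHRR in SW48, likewise not called, went from -0.11 (without myricone C replicate 3) to 0.21. Other changes were these. After quantile normalization the calls of PTGES3 in 23132/87 (-0.26) and SW48 (-0.28) and of the TIPARP difference (-0.63) were lost, and the ARNT difference was lost with median-centred scaling (-0.53). Leaving out single libraries moved AHR in 23132/87 between 0.32 and 0.61, CYP1A1 in SW48 between 0.26 and 0.91, PTGES3 in SW48 between -0.50 and -0.32, the TIPARP difference between -0.85 and -0.64 and the ARNT difference between -0.69 and -0.47. The cause was not tested. CYP1A1 in SW48 could not be fitted with the filter at 10 in 3 libraries, since it is under 10 in all 6.

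Counts of called genes moved by over 1.5 times in few cases. With that filter, which tests fewer genes, 1658 rose in 23132/87 instead of 2582. Leaving out single libraries gave 2199 to 3656 called genes in SW48 (768 to 1333 higher, 1431 to 2323 lower) and 830 to 1412 for the difference (464 to 828 lower), where the full fits called 3383 and 1306.

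The replicate numbers of the titles did not pair the samples. Libraries with the same title number deviated together with r of -0.24, 0.11 and -0.27 in 23132/87 and -0.07, -0.18 and -0.14 in SW48. Every library correlated best with a library of another number. The SW48 column numbers match vehicle replicate 2 with myricone C replicate 1 (r = 0.15) and vehicle replicate 3 with myricone C replicate 2 (r = 0.27). Each was the highest r of that vehicle library. Whether the column numbers mark true pairs was not tested, and a fit blocked on them is given below. With the replicate block the difference between lines called 770 genes (354 higher, 416 lower), and ARNT was at -0.61 without a call. With the block by SW48 column numbers, over 4 libraries, CYP1A1 in SW48 was called (0.82), PTGES3 was not (-0.42) and AHRR was at -0.076. That block also ended the SW48 calls of HSP90AA1 (-0.52), FKBP5 (-0.53), PPP5C (-0.41), AHSA1 (-0.48), STIP1 (-0.31), ST13 (-0.36), BMAL2 (-0.42), MED1 (0.46) and XPO1 (-0.40). The block by title numbers ended those of MED1 (0.42), XPO1 (-0.39), STIP1 (-0.37) and ST13 (-0.30) in SW48, of SIM2 in 23132/87 (0.38) and of the PARP16 difference (-0.76, adjusted p = 0.0516). ALDH3A1 in 23132/87 was not called with all 12 libraries in one fit (-0.66). No scaling moved the median change of all genes by 0.1 or more. Of the called or always named list genes, 29 of 38 results in 23132/87, 9 of 21 in SW48 and 7 of 12 for the difference kept their direction and side of the threshold in every alternative that could be fitted. Read depth is unknown, which limits what can be said of genes near 1 such as CYP1A1 under vehicle.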
